A study of Mus musculus with 7 samples.

Results

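The genes described here are 10 nuclear regulators of odorant receptor choice, taken from the 50600 genes of the deposited count table by their symbols: Lhx2, Ldb1, Ebf1, Ebf2, Ebf3, Ebf4, Emx2, Kdm1a, Lbr and Bptf. Their 68 annotated transcripts, of 125570 in the transcript table, were examined as well. RNA was sequenced from the whole olfactory epithelium, where the nose's sensory neurons lie, of mice at postnatal day 7. The 7 libraries comprised 1 from an Amigo1+/+ mouse (WT), 3 from Amigo1-/- mice (KO) and 3 from Amigo1neo/neo mice (neo), in which the Amigo1 coding region was replaced by a neomycin cassette. The gene encodes a neuronal cell adhesion protein with leucine-rich repeats. The labels do not say how the Amigo1-/- allele was made, or whether each library is from 1 animal. The sample names carry a code and a date-like number that WT and KO share and neo does not, which the labels do not explain, so that genotype and these marks cannot be told apart.

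Each olfactory sensory neuron transcribes a single allele of a single odorant receptor gene from a very large family. The LIM-homeodomain factor Lhx2 and the Ebf helix-loop-helix factors bind receptor promoters and the enhancers known as Greek islands. The bridging protein Ldb1 is recruited by Lhx2 and holds these enhancers together in hubs that form between chromosomes. Receptor genes that are not chosen lie in heterochromatin. The histone demethylase Kdm1a (LSD1) is needed to open the first receptor allele, and loss of the inner nuclear membrane protein Lbr from maturing neurons lets the silent genes gather into compact foci. Emx2 is a homeodomain factor whose binding motif is common in receptor promoters, and Bptf is the largest subunit of the NURF nucleosome remodeller.

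Gene counts totalled 14879415 to 21343058 per library, and the 10 regulators together took 0.179% (neo replicate 2) to 0.281% (neo replicate 1) of them. The counts of Amigo1 were 744 for WT against 0 to 16 for the KO and 1 to 11 for the neo libraries, which matches the labels. Xist, expressed from the silenced X chromosome of females, was at 644 CPM (a library's counts scaled to a common size) in WT and 1145 in neo replicate 1 and at most 4.18 in the other 5 libraries, and the Y-linked Ddx3y was at 60.7 to 84.6 CPM in those 5. WT and neo replicate 1 thus carried female transcripts and the others male ones, so that sex cannot be told apart from genotype in KO against WT. Neo replicate 1 is the only female library of the neo and KO groups. All 13 fixed markers of mature olfactory neurons, Omp among them, were detected, at a summed 3801 to 4930 CPM per library. In whole tissue, fewer cells of a type and less RNA per cell cannot be told apart. Since separate animals are not stated, p-values measure the spread between these libraries, which may in part be technical.

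All 10 regulators were well expressed, with 775 to 13719 counts per gene and library. Levels of different genes are compared in TPM, an abundance scale that divides by gene length. Lhx2 (mean of 7 libraries 149 TPM), Ebf2 (145 TPM) and Ebf3 (137 TPM) stood highest. Ebf1 (95.1 TPM), Ldb1 (94.5 TPM), Kdm1a (88.5 TPM) and Emx2 (85.9 TPM) followed. Ebf4 (37.2 TPM), Lbr (27.7 TPM) and Bptf (20.2 TPM) were lowest. Only 3 steps between neighbours in this order held in all 7 libraries. Ebf3 exceeded Ebf1 by 1.36 to 1.64 times, Emx2 exceeded Ebf4 by 1.69 to 3.39 times, and Ebf4 exceeded Lbr by 1.05 to 1.53 times. Lhx2 was above Ebf2 in 5 of 7 libraries and Ebf1 above Ldb1 in 2 of 7, so these neighbours did not differ beyond their spread.

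No regulator passed the test between genotypes. The series sets neo beside KO, its 2 replicated groups, which differ in the cassette and also in the unexplained marks of the sample names. Of the 10 genes, 0 were called there by edgeR's quasi-likelihood test at an adjusted p under 0.05, against 0.017% of all 17638 genes tested (3 genes). DESeq2 also called 0 regulators, against 0.544% of its genes, and the authors' deposited table called 0, against 0.429%. At an unadjusted p under 0.05 edgeR gave 1 regulator, Ebf4, against 9.32% of all genes. The median fitted log2 change of the 10 was 0.05, beside -0.002 over all genes tested. Fitted fold changes of neo over KO ran from 0.884 (Bptf) to 1.31 (Ebf4), and the outermost bounds of their 95% intervals were 0.73 and 1.65. The CPM ranges of neo and KO did not overlap for 2 of 10 regulators, Ebf4 and Lbr, against 15.6% of all genes tested.

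**Figure D1:**
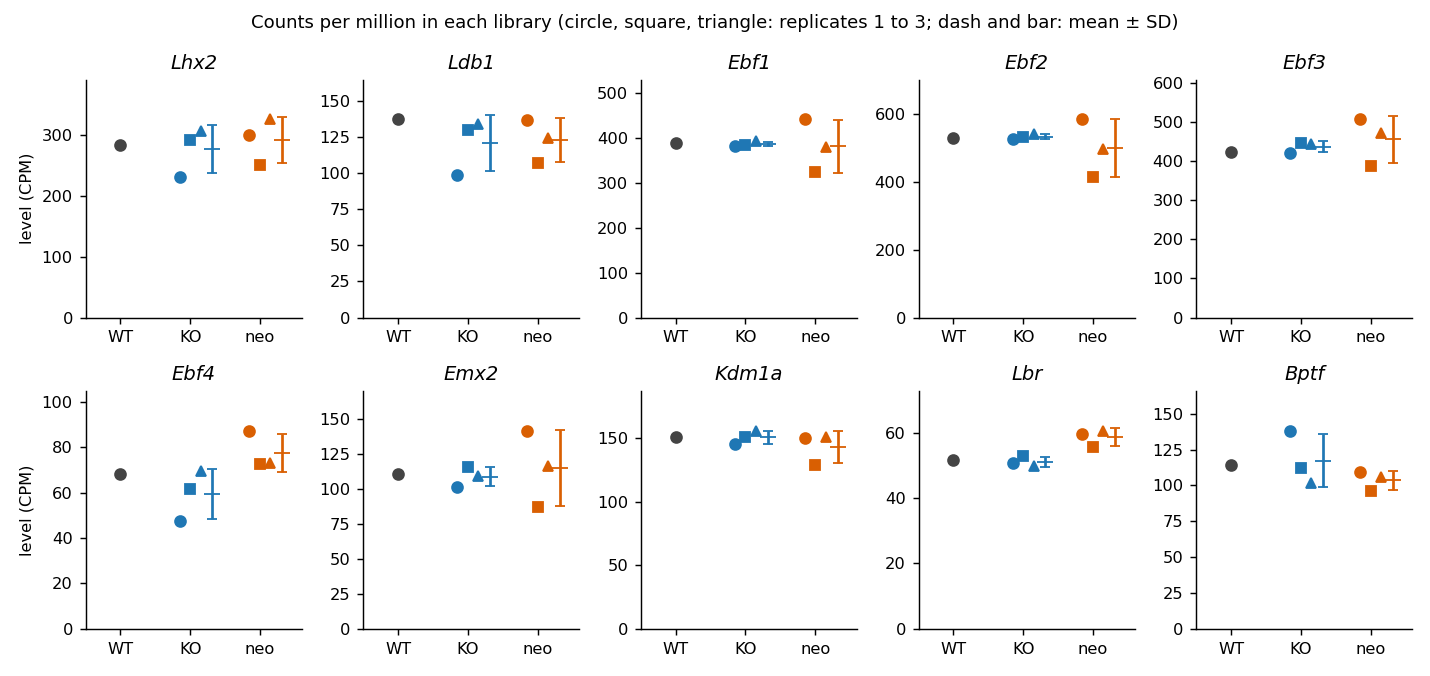
Level of each regulator in CPM (vertical axes, starting at 0) in the WT, KO and neo libraries, with points for replicates and a dash and bar for the mean ± SD of the 3 KO or 3 neo libraries. The neo and KO points overlap for 8 genes and are apart for Ebf4 and Lbr, and neo replicates 1 and 2 form the top and bottom of the neo spread for Ebf1, Ebf2, Ebf3, Ebf4 and Emx2.

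Lhx2 (ENSMUSG00000000247.11, GRCm38 chr2:38339281-38369733) stood at 283 CPM in the WT library. Its KO values were 232, 292 and 307 CPM and its neo values 300, 251 and 326 CPM, given in the order of the replicate numbers here and below. KO replicate 1 was the lowest library and neo replicate 3 the highest, and the groups overlapped. The change from KO to neo was 0.08 on the log2 scale (SE 0.14, 95% interval -0.23 to 0.39, adjusted p = 0.901, edgeR).

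Ldb1 (ENSMUSG00000025223.14, chr19:46032593-46045214) had 137 CPM in WT, 98.4, 130 and 134 CPM in KO, and 137, 107 and 124 CPM in neo. Its low libraries, KO replicate 1 and neo replicate 2, were also the low ones for Lhx2. The change from KO to neo was 0.03 (log2, 95% interval -0.29 to 0.34, adjusted p = 0.973, edgeR). The count of Lhx2 per count of Ldb1, which cancels library size, was 2.06 in WT, 2.30 ± 0.0521 in KO (SD, n = 3) and 2.39 ± 0.219 in neo (SD, n = 3). The factor and its bridging partner therefore kept overlapping proportions in the replicated groups.

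Lhx2 was read almost wholly as the transcript ENSMUST00000000253.5, with 93.0% of its TPM. Ldb1 was divided among several: ENSMUST00000026252.13 held 35.9% of the gene's TPM, ENSMUST00000137771.1 23.5%, ENSMUST00000152946.7 19.8% and ENSMUST00000056931.13 11.3%. The share of the last was 10.1, 15.7 and 13.5% in KO and 9.13, 9.0 and 9.17% in neo, with no overlap. Its TPM ranges did overlap.

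The Ebf proteins bind DNA as dimers, and the 4 mouse genes give closely related DNA-binding domains. Their transcripts nevertheless share little exact sequence. The longest exact stretch shared between the most abundant transcripts of any 2 of the 4 genes was 27 bases, and no window of 50 bases was shared. The 3 longest shared stretches, all coding, are printed to show how short the ambiguous sequence is (GRCm38, on the strand of the transcript, with the shared bases in capitals).
Ebf3 and Ebf4, at chr7:137307541-137309312 of Ebf3 across a splice junction, minus strand: GAGATCATGTGCAGCCGGTGCTGTGAC
Ebf1 and Ebf3, at chr11:44618230-44618253 of Ebf1, plus strand: GAGCCGCTGGGCAGCGGCATGAAC
Ebf2 and Ebf3, at chr14:67237528-67237550 of Ebf2, plus strand: CTGGCGCTCTACGACAGGCAGGG

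Ebf1 (ENSMUSG00000057098.14, chr11:44617317-45008091) had 390 CPM in WT, 383, 385 and 393 CPM in KO, and 442, 324 and 381 CPM in neo. The 3 KO libraries were nearly equal and lay inside the neo range. Its change from KO to neo was -0.02 (log2, 95% interval -0.29 to 0.26, adjusted p = 0.981, edgeR).

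Ebf2 (ENSMUSG00000022053.13, chr14:67233292-67430918) repeated that picture, with 528 CPM in WT, 528, 531 and 542 CPM in KO, and 584, 413 and 498 CPM in neo. Again the KO values fell between neo replicates 1 and 2. The change was -0.10 (log2, 95% interval -0.39 to 0.20, adjusted p = 0.868, edgeR).

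Ebf3 (ENSMUSG00000010476.14, chr7:137193673-137314445) had 424 CPM in WT, 420, 445 and 444 CPM in KO, and 507, 389 and 471 CPM in neo. Neo replicate 2 was once more the lowest of the 7 libraries and neo replicate 1 the highest. The change was 0.06 (log2, 95% interval -0.20 to 0.33, adjusted p = 0.908, edgeR).

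Ebf4 (ENSMUSG00000053552.14, chr2:130295169-130370481) had the largest fitted change of the 10 genes between neo and KO. Its values were 47.5, 61.7 and 69.3 CPM in KO against 87.2, 72.4 and 73.2 CPM in neo, with 68.3 CPM in WT. Each neo library was above each KO library, and WT lay within the KO range. The change was 0.39 (log2, SE 0.15, 95% interval 0.05 to 0.72, 1.31-fold, unadjusted p = 0.0280, adjusted p = 0.502, edgeR), which did not pass the test over all genes. In the authors' deposited table, with KO set against neo, Ebf4 had a log2 change of -0.38 and an adjusted p of 0.478. The fitted change ranged from 0.25 to 0.51 when each of the 6 libraries was left out in turn, and the difference was in the same direction in each. With gene TPM, which is not scaled by TMM, the neo and KO ranges of Ebf4 overlapped (34.3 to 55.8 TPM in neo, 23.6 to 35.5 TPM in KO).

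**Figure D2:**
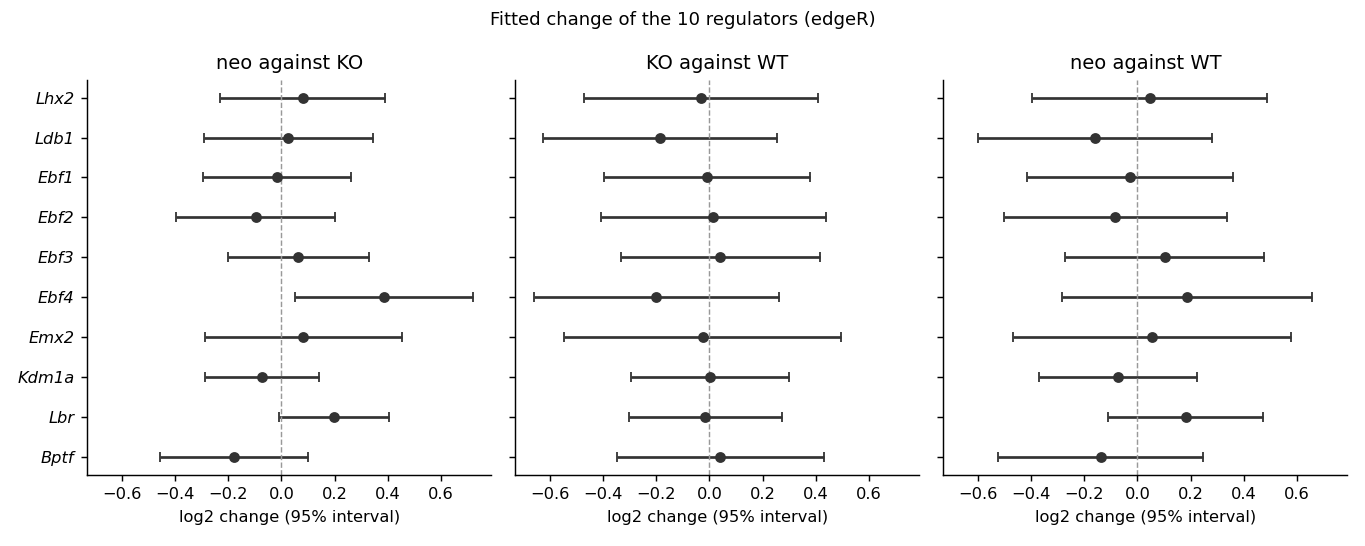
Fitted log2 change of each regulator (points) with its 95% interval (bars) in the 3 comparisons, from edgeR, where 0 marks no change. Among the intervals shown only that of Ebf4 in neo against KO (0.05 to 0.72) leaves out 0, before any adjustment for the number of genes tested.

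The make-up of the Ebf family was described next. As a share of the summed TPM of the 4 genes, Ebf2 was 37.5, 35.8 and 35.9% in KO and 34.3, 32.6 and 32.7% in neo. Ebf3 was 32.3, 32.7 and 32.2% in KO and 32.8, 33.7 and 36.0% in neo. Ebf4 was 6.54, 7.98 and 8.91% in KO and 9.97, 10.9 and 9.39% in neo. The groups were apart for all 4 genes, Ebf1 included (23.4% ± 0.331 against 22.6% ± 0.555 for KO and neo, SD, n = 3). The margin was narrow for Ebf1 (23.02% in KO replicate 3, 22.93% in neo replicate 1) and Ebf3 (32.66% in KO replicate 2, 32.79% in neo replicate 1). The 4 shares sum to 100% and so are not independent of each other. No background is given for such shares in other gene families, so the lack of overlap is a description only. WT, with 23.2, 36.1, 31.7 and 9.07% for Ebf1 to Ebf4, was closer to the KO means than to the neo means for Ebf1, Ebf2 and Ebf3.

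Ratios of counts, which need no scaling by library or length, were taken as well. The Ebf2 to Ebf3 ratio was 1.257, 1.193 and 1.221 in KO, 1.153, 1.063 and 1.058 in neo, and 1.25 in WT. The ratio was thus lower in each neo library than in the other 4 libraries (log2 difference of neo from KO -0.17). The Ebf1 to Ebf2 ratio was 0.726, 0.724 and 0.726 in KO and 0.756, 0.783 and 0.764 in neo, with 0.738 in WT. The spread in KO (SD 0.00104) was below the 0.0115 that counting error alone gives for 1 library. Single genes did not overlap in 15.6% of cases in CPM, but that is another measure and no background for ratios. No share is given for ratios of other gene pairs. The ratios of Ebf1 to Ebf3 and of Ebf3 to Ebf4 overlapped between neo and KO. Of the 6 pairs of Ebf genes, which reuse the same 4 genes, 4 did not overlap. An exact two-sided permutation test over libraries gave p = 0.1 for each of these 4 (0.15 after Benjamini-Hochberg adjustment over the 6 pairs). That is the smallest p that 3 libraries against 3 allow, so no ratio could reach the threshold of 0.05. Every pair without overlap receives this p, so the test adds nothing to the lack of overlap. The ratios were examined after the members' values had been seen.

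**Figure D3:**
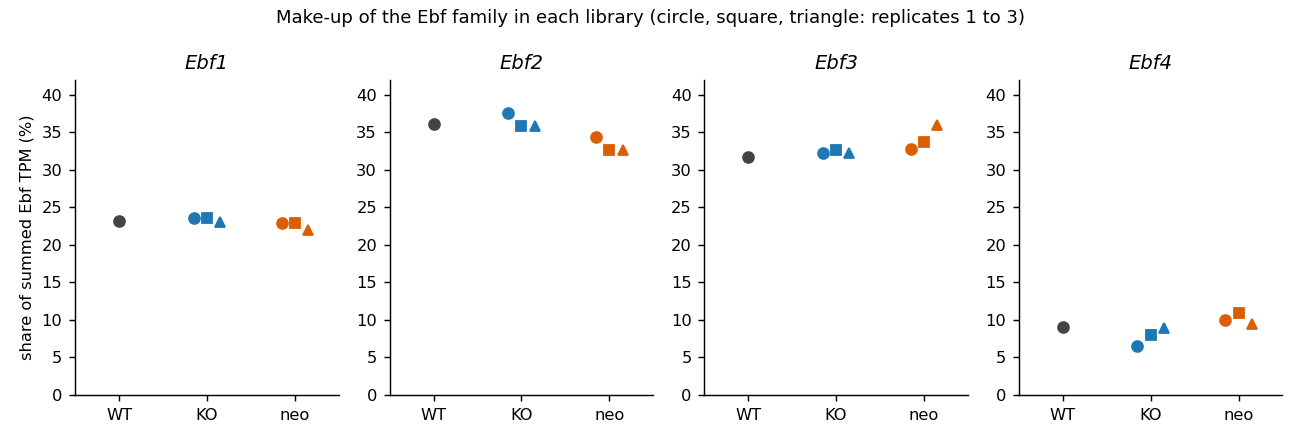
Share of the summed TPM of the Ebf family (percent, vertical axes from 0) held by Ebf1 to Ebf4 in each library, with points for the WT library and for KO and neo replicates 1 to 3. The Ebf2 points are lower in neo (32.6 to 34.3%) than in KO (35.8 to 37.5%), and the Ebf4 points are higher in neo (9.39 to 10.9%) than in KO (6.54 to 8.91%).

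Among the Ebf transcripts, Ebf2 was read 97.1% as ENSMUST00000176161.7 and Ebf1 86.5% as ENSMUST00000081265.11. Ebf3 was mainly ENSMUST00000033378.12 (54.0%), ENSMUST00000169486.8 (29.9%) and ENSMUST00000168203.1 (11.9%). The share of ENSMUST00000169486.8 was 43.5, 30 and 35.4% in KO and 26.1, 26.6 and 17.0% in neo. That of ENSMUST00000168203.1 was 0, 8.29 and 10.4% in KO and 14.3, 13.1 and 29.7% in neo. Both sets of shares were apart between the groups, in opposite directions. Of the 25 transcripts of the 10 regulators with at least 10% of their gene's TPM, 3 had shares that did not overlap, these and the Ldb1 transcript above, close to the 10.2% of such transcripts over all genes tested. Ebf4 was spread over ENSMUST00000110287.1 (39.5%), ENSMUST00000140169.7 (24.2%), ENSMUST00000110286.7 (24.1%) and ENSMUST00000134728.7 (10.1%). Of the 49 transcripts of the 10 genes that could be tested, 0 were called by limma at an adjusted p under 0.05 (lowest 0.868), as was 0% of all 44981 transcripts. ENSMUST00000134728.7, an Ebf4 transcript annotated as a retained intron, was the 1 transcript at an unadjusted p under 0.05, against 5.18% of all transcripts. It stood at 1.87, 2.32 and 3.44 TPM in KO and 4.82, 5.23 and 4.93 TPM in neo.

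Several regulators are made in forms that differ by a short coding segment, and these segments are printed because the coding forms of these genes differ by them. The share of a form is the TPM of transcripts with the segment as a percentage of the TPM of all transcripts that span it and are annotated as coding or as targets of nonsense-mediated decay. The sequences are from GRCm38 on the strand of the gene, with the segment in capitals and, where shown, the bases that flank it in the transcript in lower case.
Ebf1, 24 bases, chr11:44883932-44883955, plus strand: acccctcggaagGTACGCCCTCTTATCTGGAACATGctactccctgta
Ebf3, 108 bases, chr7:137198582-137198689, minus strand: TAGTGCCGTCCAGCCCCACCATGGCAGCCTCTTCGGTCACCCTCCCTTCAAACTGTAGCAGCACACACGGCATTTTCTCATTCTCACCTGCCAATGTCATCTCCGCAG
Ebf4, 90 bases, chr2:130362342-130362431, plus strand: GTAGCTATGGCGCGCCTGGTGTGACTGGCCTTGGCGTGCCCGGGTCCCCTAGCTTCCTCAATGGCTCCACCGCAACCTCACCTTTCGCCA
Kdm1a microexon, 12 bases, chr4:136563438-136563449, minus strand: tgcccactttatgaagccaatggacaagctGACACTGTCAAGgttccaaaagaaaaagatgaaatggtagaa
Kdm1a longer exon, 60 bases, chr4:136582040-136582099, minus strand: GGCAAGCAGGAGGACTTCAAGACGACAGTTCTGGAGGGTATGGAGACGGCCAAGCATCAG

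Each of the 5 segments lies in the coding sequence and has a length that keeps the reading frame. The Ebf1 extension was nearly always present, in 97.1 to 99.4% of TPM over the 7 libraries. The Ebf3 extension was in 47.7, 42.2 and 49.9% in KO, 44.9, 43.2 and 50.3% in neo and 41.5% in WT. The long and short Ebf3 forms were thus about equally common in every group. Both of the Ebf3 transcripts whose shares were apart between the groups contain this segment. The Ebf4 extension was in 33.7, 76.6 and 41.0% in KO and 69.5, 56.0 and 50.8% in neo, a spread within KO wider than the difference between the groups.

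**Figure D4:**
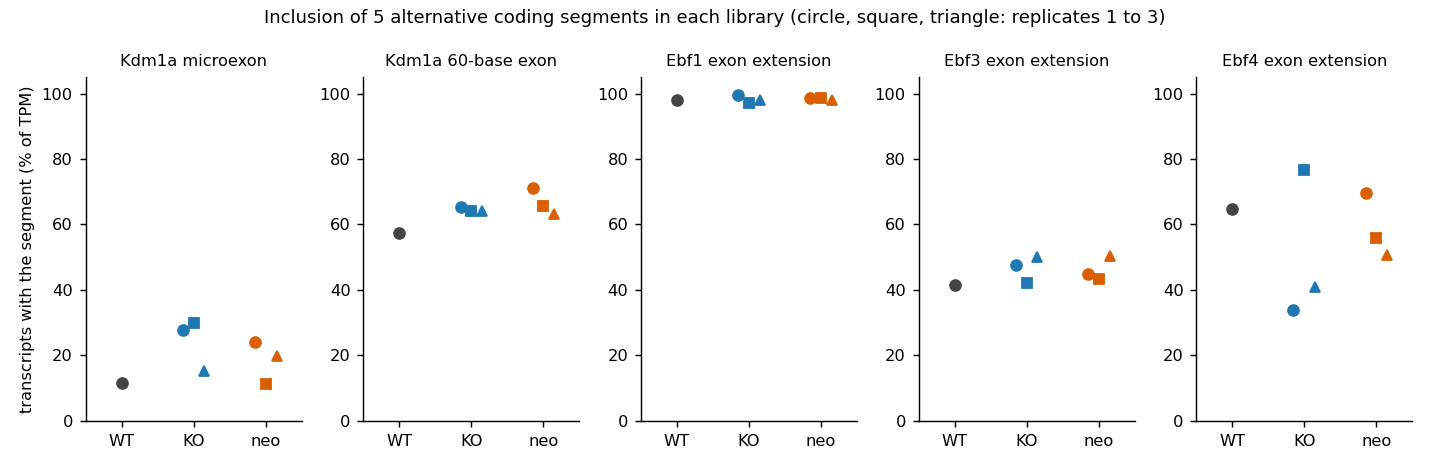
Share of each gene's spanning transcripts that contain the segment (percent of TPM, vertical axes from 0 to 100) in the WT library and in KO and neo replicates 1 to 3. The neo and KO points overlap for all 5 segments, the Ebf1 extension sits near 98% throughout, and the Ebf4 extension runs from 33.7 to 76.6% within KO.

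Emx2 (ENSMUSG00000043969.4, chr19:59458372-59465357) had 111 CPM in WT, 102, 116 and 109 CPM in KO, and 142, 87.2 and 117 CPM in neo. Neo replicates 1 and 2 were the highest and the lowest of all libraries, 1.63 times apart, and KO lay between them. The change from KO to neo was 0.08 (log2, 95% interval -0.29 to 0.45, adjusted p = 0.914, edgeR). Its main transcript, ENSMUST00000174353.1, held 70.1% of TPM and ENSMUST00000062216.3 held 24.9%.

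Kdm1a (ENSMUSG00000036940.15, chr4:136550540-136602723) was the steadiest of the 10 genes, with a highest library only 1.21 times the lowest. It had 150 CPM in WT, 145, 151 and 156 CPM in KO, and 150, 129 and 151 CPM in neo. Only neo replicate 2 was below the KO range. The change was -0.07 (log2, 95% interval -0.29 to 0.14, adjusted p = 0.854, edgeR).

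The Kdm1a microexon is known as a neuron-specific segment that distinguishes the neuronal form of the enzyme from the form made in all tissues. It was in 27.7, 29.9 and 15.2% of spanning TPM in KO, 24, 11.4 and 19.7% in neo, and 11.5% in WT. Most Kdm1a RNA of the epithelium was thus assigned to the form without it, and the groups overlapped. The estimate rests on a single annotated transcript, ENSMUST00000170979.1, so it measures how reads were assigned to that transcript as much as the 12 bases themselves. The longer exon was in 65.3, 64.2 and 64.1% in KO, 71.1, 65.6 and 63.2% in neo, and 57.5% in WT. Inclusion of that exon was lowest in WT, a single library, whereas the mutant groups overlapped. This estimate too rests on a single annotated transcript with the exon, ENSMUST00000105847.7. The microexon transcript does not span the longer exon and was left out of it.

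Lbr (ENSMUSG00000004880.11, chr1:181815335-181843046) had 51.7 CPM in WT, 50.8, 52.8 and 49.8 CPM in KO, and 59.7, 55.5 and 60.6 CPM in neo. All 3 neo libraries were above the other 4. The change from KO to neo was 0.20 (log2, SE 0.09, 95% interval -0.01 to 0.41, unadjusted p = 0.0587, adjusted p = 0.544, edgeR) and did not pass. In gene TPM its neo and KO ranges overlapped (24.1 to 38.1 and 22.4 to 28.1 TPM). Its main transcript, ENSMUST00000005003.11, held 68.4% of the gene's TPM. It was at 17.6, 18.0 and 16.8 TPM in KO and 21.1, 18.4 and 20.6 TPM in neo, without overlap, and was not called (adjusted p = 0.875, limma). Of the 49 tested transcripts of the regulators, 5 had TPM ranges without overlap, this one among them, and no share over all transcripts is given.

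Bptf (ENSMUSG00000040481.17, chr11:107033081-107132127) went the other way, with 114 CPM in WT, 138, 112 and 102 CPM in KO, and 109, 96.0 and 106 CPM in neo. KO replicate 1 was the highest library and the remaining KO values overlapped those of neo. The change was -0.18 (log2, SE 0.12, 95% interval -0.46 to 0.10, adjusted p = 0.694, edgeR), and -0.04 at its smallest when 1 library was left out. Its main transcript, ENSMUST00000057892.14, held 49.0% of TPM.

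Against the single WT library no regulator passed the test in either mutant group. In KO against WT, 0 of 10 were called (0.00523% of 19123 genes, 1 gene), and the fitted folds ran from 0.871 (Ebf4) to 1.03 (Bptf) with outermost interval bounds of 0.633 and 1.41. In neo against WT, 0 of 10 were called (0.0105%, 2 genes), and the folds ran from 0.895 (Ldb1) to 1.14 (Ebf4) with bounds of 0.66 and 1.58. At an unadjusted p under 0.05 both comparisons gave 0 regulators by edgeR, against 0.727% and 2.97% of all genes, and 0 by DESeq2. DESeq2 with adjustment also called 0 regulators in both (0.00319% and 0.00957% of its genes). WT lay inside the range of the KO libraries for 9 regulators and above it for Ldb1. It lay inside the neo range for 6, above it for Ldb1 and Bptf and below it for Ebf4 and Lbr. These comparisons share the WT library, whose own spread is unknown and was taken to be that of the others.

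Part of the spread followed single libraries across several regulators. Neo replicate 1 was the highest library in CPM for 5 regulators and in TPM for all 10, whereas neo replicate 2 was the lowest in CPM for 6. These 2 libraries were also at the extremes for a single abundant gene, Gm42418. It took 9.83% of counts in neo replicate 1, the lowest of the 7 libraries, and 16.5% in neo replicate 2, the highest. Its part in the regulators' values was not tested. KO replicate 1 was lowest for Lhx2, Ldb1 and Ebf4, at -0.29, -0.32 and -0.51 from the gene's mean over 7 libraries (log2), and highest for Bptf (0.32). The main transcripts of these 3 low genes have a GC content of 58.5 to 59.4%, in the top quintile of the expressed genes. The median deviation of that quintile was -0.10 in KO replicate 1, -0.12 in neo replicate 1 and 0.10 in neo replicate 2. Ebf4 and Ldb1, at 0.37 and 0.16, were high in neo replicate 1, opposite to the median of their quintile. The part of GC content in these values was not tested.

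**Figure D5:**
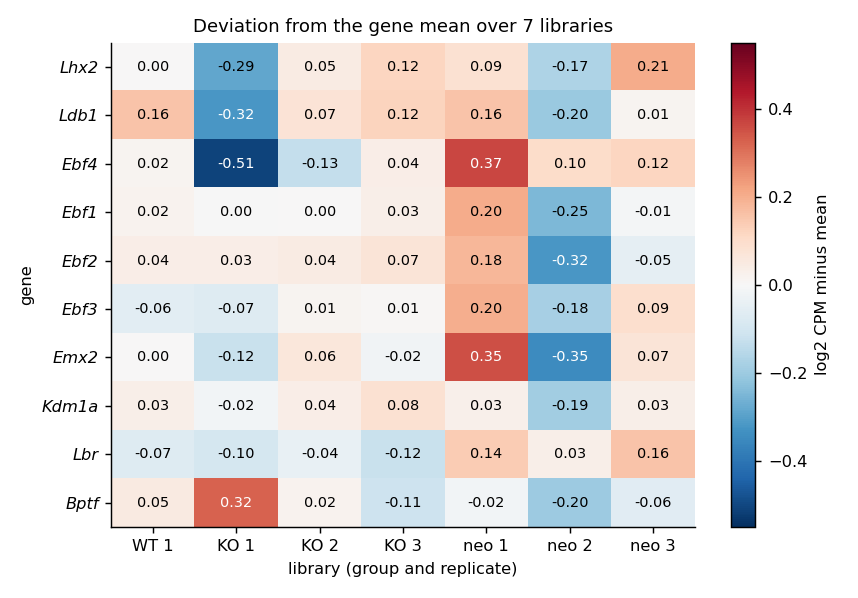
Deviation of each regulator (rows) from its own mean log2 CPM over the 7 libraries (columns), written in each cell and coloured from blue (below) to red (above). The column of KO replicate 1 is lowest for Ebf4 (-0.51), Ldb1 (-0.32) and Lhx2 (-0.29), and the column of neo replicate 2 is below 0 for all but Ebf4 and Lbr.

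The summed markers of 4 cell types did not overlap between neo and KO. The 13 mature neuron markers summed to 4407 to 4930 CPM in neo and 3801 to 4220 in KO, and the 7 precursor markers to 559 to 629 in neo and 444 to 533 in KO. The 7 immature neuron markers overlapped, at 1760 to 2290 CPM in neo and 2189 to 2361 in KO. The sum of 6 fibroblast markers was lower in neo (4018 to 6998 CPM) than in KO (8913 to 13071 CPM), mostly through Col1a1 and Col1a2, whereas Col3a1, Dcn and Pdgfra overlapped. The sum of 7 bone and cartilage markers was lower as well (243 to 688 against 871 to 1195 CPM), mostly through Ibsp, whereas Runx2, Col2a1 and Acan overlapped. None of the markers of these 5 lists was called, and none was at 0 in all libraries. Counted per 1000 mature neuron marker counts, Ebf4 overlapped between the groups (11.3, 16.0 and 18.2 in KO and 19.5, 14.7 and 16.6 in neo), and so did Lbr. Kdm1a and Bptf, which overlapped in CPM, were apart on this scale and lower in neo. Kdm1a was at 34.46 to 40.98 in KO and 26.11 to 34.14 in neo. Bptf was at 26.82 to 32.74 in KO and 19.48 to 24.38 in neo. The remaining regulators overlapped. Because the marker sum was higher in each neo library, this scale lowers every gene in neo by about the same amount. The small differences of Lhx2, Ldb1, Ebf3, Emx2 and Lbr thereby turned from higher to lower in neo, which says nothing particular to these genes. No share of all genes apart on this scale is given, so the separation of Kdm1a and Bptf cannot be read as particular to them either. The part of cell composition in the regulators' values was not tested.

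The proteins that work with these regulators were followed in 9 lists with 102 genes in all, all of which were tested. Of the 102, 0 were called by edgeR in any of the 3 comparisons. In neo against KO, at an unadjusted p under 0.05 the higher ones numbered 8 and the lower ones 1 (9.32% of all genes tested, of which 810 higher and 833 lower), with a median log2 change of 0.03.

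In the list of 9 LIM complex partners, Lmo3, a LIM-only protein that binds Ldb1, was the 1 gene past that mark. It was very low throughout, at 1.43 CPM in WT, 2.39, 2.73 and 2.38 CPM in KO, and 0.426, 1.02 and 0.333 CPM in neo. The neo values were below all others, with a log2 change of -2.08 (SE 0.39, adjusted p = 0.340, edgeR). The call depended on the tool and the filter: edgeR without a count filter gave an adjusted p of 0.0196, DESeq2 gave 0.0142, and the authors' deposited table gave 0.0286 with a log2 change of 2.09 for KO against neo. Ssbp3, which stabilises Ldb1, was the other gene of that list with the smallest p and was not called (log2 0.16, adjusted p = 0.650, edgeR).

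Of 11 Kdm1a complex partners only the zinc finger protein Zmym3 passed the unadjusted mark, at 37.2 ± 2.15 CPM (SD, n = 3) in KO and 47.5 ± 3.84 in neo (log2 0.36, adjusted p = 0.470, edgeR). Of 11 genes of the nuclear envelope and lamina, where Lbr resides, it was reached by Lmnb1 (lamin B1, log2 0.28, adjusted p = 0.498, edgeR) and Tmpo (the lamina-associated LAP2, log2 0.25, adjusted p = 0.498, edgeR). The CPM of Tmpo were 309 ± 14.6 (SD, n = 3) for KO, 368 ± 12.3 for neo and 301 for WT. The list as a whole was even, with 6 genes of positive and 5 of negative change.

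Of 17 heterochromatin and DNA methylation genes, Uhrf1, which recruits maintenance methylation to newly copied DNA, was higher at the unadjusted mark (log2 0.40, adjusted p = 0.505, edgeR). Among the enhancer coactivators, the Mediator subunit Med12 was (log2 0.30, adjusted p = 0.529, edgeR). Of 26 olfactory lineage transcription factors, Hes6 and Sox2, genes of progenitors, were (log2 0.35 and 0.21, adjusted p = 0.515 and 0.535, edgeR). The 8 genes of NURF and ISWI remodelling, the 10 of cohesin and CTCF, and the Ebf-binding proteins Zfp423 and Zfp521 gave none. Among the other genes named by the smallest p, the log2 changes were 0.18 for Rcor3, 0.21 for Dnmt1, 0.11 for Rbbp4, 0.13 for Rbbp7, 0.08 for Rad21 and 0.15 for Pds5a, and none passed. The part of precursor cells in the values of Uhrf1, Hes6 and Sox2, itself 1 of the 7 precursor markers summed above, was not tested.

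The likeness of expression patterns was measured as the root mean square difference of 2 genes' deviations in log2 CPM over the 7 libraries. Small values mean that the deviations were alike, which also holds where both genes hardly varied. Among the regulators Ebf1 and Ebf2 were closest (0.04), then Ebf1 and Ebf3 (0.06). Lhx2 and Ldb1 were at 0.10, whereas Ebf4 was at least 0.19 from every other member. Over 12226 genes of sufficient level, those closest to Lhx2 were Prss12 (0.06) and Hunk (0.06), to Ldb1 Ankra2 (0.04) and Aste1 (0.05), to Ebf1 Rictor (0.03) and Sirt1 (0.03), and to Ebf4 Sirt6 (0.05) and Hemk1 (0.05). Kdm1a was closest to Dhx8 (0.02), Lbr to St6gal1 (0.02), Bptf to Usp24 (0.02) and Emx2 to Kcnh8 (0.04). The typical gene was 0.17 to 0.30 from a regulator. With 7 points shared by all genes, and library differences among them, these values are descriptions only.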

How the data were processed

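Integer gene counts were deposited by the authors, in a table named as stranded. Per the submitters' processing notes, Trimmomatic 0.35, STAR 2.5.1b and RSEM were used with GRCm38 (mm10). Libraries were made with a poly(A) capture kit, per the labels' protocols. The deposited TPM and FPKM values per gene and per transcript are on a per-length scale, per the file headers. The authors' deposited comparison of KO with neo held log2 fold changes, p-values, a standard error used here as a score and a normalised signal per library, per the file headers, with DESeq2 1.18.1 named in the processing notes. That table's header names its groups only A and B, and group means recomputed from its columns put KO at A and neo at B. The signal column was not used for tests. Of all reads, 35.6 to 41.8% fell in rows without a gene name, and those rows were not used.

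Groups came from the sample titles. Gene counts were tested with edgeR 4.0.16 in R 4.3.3 (TMM, filterByExpr with a minimum count of 10 and total of 15, robust quasi-likelihood fit, Benjamini-Hochberg adjustment over all genes tested, threshold 0.05, two-sided). Neo against KO used those 6 libraries, and comparisons with WT used all 7. For transcripts with a mean TPM of 0.5 or more, limma 3.58.1 was run on log2(TPM + 0.1). DESeq2 1.42.0 was an alternative. Scripts were tested on simulated data. Every pair of libraries differed by more than counting error (chi-square at least 9.58 per degree of freedom). Of the 10 gene identifiers, 9 matched GENCODE vM21 with the same coordinates and 67 of 68 transcripts were found there. Ldb1 differed in version, and its coordinates are those of the deposited files. Segments and shared stretches were read from the GENCODE vM21 transcript sequences, with positions on GRCm38. GC content was available for 87.5% of the genes compared. The partner lists, named genes (in each list the called genes, or the 2 with the smallest p), transcripts (at least 10% of a gene's TPM) and the 10 regulators were chosen with earlier results of these data known. Values of 1 gene named by that rule are not reported here.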

Additional observations from a re-analysis of the deposited data

How the results depend on the processing

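No regulator and none of their transcripts was called under any alternative run: DESeq2 or its size factors, TMM computed without the chemosensory receptor genes, count filters from none to 50 counts in 3 libraries, limma on gene TPM, other pseudocounts and TPM filters, 1 fit of all libraries or of only the groups compared, a replicate block, and leaving out each KO or neo library. WT could not be left out. The count of regulators with no overlap between neo and KO, 2 in CPM, was 0 in gene TPM and 0 in gene FPKM, and 2 to 4 with 1 library left out (4 without neo replicate 1 or without neo replicate 2). Ranges of fewer libraries overlap less often, and the share of all genes under these settings is not given. The counts are therefore no result about the regulators. Same-numbered KO and neo libraries did not clearly deviate together (correlations -0.14, -0.05 and 0.19), and differently numbered ones ran from -0.19 to 0.24. No pairing by number was seen, though such weak values cannot exclude one. The replicate block gave 0 regulators called and 1 gene called of all tested, against 3 without it. Over all genes, neo against KO gave 40 calls without a count filter, 1 with the strict filter, 98 with DESeq2, 1 with limma on TPM and 1 to 17 with 1 library left out (17 without neo replicate 1). KO against WT gave 1 call, but 2 without a count filter, 2 and 16 with limma on TPM at pseudocounts of 0.1 and 1, 6 when only those groups were fitted and 1 to 4 with 1 library left out. Neo against WT gave 2, but 7, 5 and 17 under the first of these settings in the same order, 3 with DESeq2 and 2 to 6 with 1 library left out.

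Small changes turned sign. On gene TPM with limma, with pseudocounts of 0.1 and 1, the log2 change of neo against KO became 0.074 and 0.073 for Ebf1, and 0.0093 and 0.0096 for Bptf. On the same scale KO against WT became -0.082 and -0.081 for Ebf2, -0.063 for Ebf3, and -0.10 and -0.097 for Bptf, and neo against WT became 0.0011 and 0.0015 for Kdm1a. KO against WT for Kdm1a was -0.0013 with TMM computed without receptor genes and -0.0027 with the filter of 50 counts. With 1 library left out, neo against KO ran from -0.034 to 0.18 for Lhx2, -0.10 to 0.12 for Ldb1, -0.13 to 0.096 for Ebf1, -0.22 to 0.028 for Ebf2, -0.017 to 0.17 for Ebf3, -0.093 to 0.25 for Emx2 and -0.11 to 0.0024 for Kdm1a. KO against WT ran from -0.11 to 0.081 for Lhx2, -0.021 to 0.0026 for Ebf1, -0.072 to 0.022 for Emx2, -0.022 to 0.027 for Kdm1a, -0.041 to 0.0027 for Lbr and -0.093 to 0.13 for Bptf. Neo against WT ran from -0.038 to 0.15 for Lhx2, -0.13 to 0.084 for Ebf1, -0.20 to 0.041 for Ebf2, -0.11 to 0.23 for Emx2 and -0.11 to 0.0022 for Kdm1a. The cause was not tested. Ebf4 and Lbr kept their direction between neo and KO with each library left out. The log2 difference of the Ebf2 to Ebf3 ratio was -0.21 in gene TPM and -0.21 to -0.14 with 1 library left out, both alternatives chosen after seeing the values.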

Other observations

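Among the 102 partner genes, 1 in KO against WT and 4 in neo against WT were past an unadjusted p under 0.05, and none was called by edgeR. Over all genes tested 0.727% and 2.97% were past it, so these counts are near the background. Zfp521, a zinc finger protein that binds Ebf factors and restrains them, appeared in both. Its CPM were 13.2 for WT, 18.4 ± 1.15 (SD, n = 3) for KO and 21.3 ± 2.43 for neo, with log2 changes of 0.48 in KO and 0.69 in neo against the same single WT library (adjusted p = 1 and 0.9999, edgeR). Uncx, a homeodomain factor, was at 53.0 CPM in WT, 41.6 ± 6.55 in KO and 37.1 ± 2.25 in neo. Both genes had neo and KO ranges that overlapped. Since both comparisons rest on 1 WT library, which also differs in sex from 5 of the others, the values are given as they stand.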
